A study of Homo sapiens with 84 samples.

Results

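The genes described here are EPCAM, its tight-junction partner CLDN7, and 5 genes for proteins that cut EpCAM or belong to the complexes that do, namely ADAM10, ADAM17, BACE1, PSEN2, and NCSTN. They were chosen by name, as the rows of the count tables whose Ensembl identifier maps to these 7 symbols, and are 7 of 58395 gene identifiers. All 7 passed the filter on low counts in each cell line, and none was at 0 in any of the 63 libraries used.

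EpCAM is a transmembrane glycoprotein of epithelial cells and of most carcinomas. In regulated intramembrane proteolysis, a sheddase such as ADAM10 or ADAM17 first cuts off the extracellular domain EpEX, and gamma-secretase, a complex of a presenilin with nicastrin, APH-1, and PEN-2, then releases the intracellular domain EpICD, which acts with FHL2 and beta-catenin in the nucleus. BACE1, the beta-secretase best known for cutting the amyloid precursor, can also cut EpCAM. CLDN7 encodes claudin-7, a junction protein that binds EpCAM in epithelial membranes.

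The study asked how EGF and soluble EpEX, both ligands of EGFR, act on carcinoma cells. Kyse30 cells come from an esophageal and FaDu cells from a hypopharyngeal squamous cell carcinoma, each group is 1 cell line, and all groups were kept without serum. Cells were left untreated for 0, 6, or 72 h, or were given Fc (the control protein of the fusion), EpEX-Fc (EpEX), EGFlow (1.8 nM), EGFhigh (9 nM), or EGFhigh with EpEX for 6 or 72 h. RNA was read from its 3′ ends (QuantSeq), so that a count does not depend on transcript length. In Kyse30, 43 libraries fell into 13 groups of 3 or 4. Of 41 FaDu libraries, the 20 of replicates 3 and 4 were used, in 13 groups of 1 or 2. The other 21 FaDu libraries spread more widely. EPCAM ranged there from 4.60 to 569.1 CPM and in replicates 3 and 4 from 287.6 to 464.1 CPM (CPM being counts relative to the library's total, here scaled by TMM over all 41 FaDu libraries), and the results that rest on FaDu were also computed with all 41.

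Total counts on genes ranged from 1944948 to 11759799 in Kyse30 and from 6217938 to 12442349 in the FaDu libraries used. A level of 3 counts, taken as the smallest that a library can show, was 0.255 to 1.54 CPM in Kyse30 and 0.241 to 0.483 CPM in FaDu. Epithelial keratin genes were high in both lines. KRT18 had a median of 2805 CPM in Kyse30 and 981 CPM in FaDu, whereas the leukocyte gene PTPRC and the endothelial gene PECAM1 had a median of 0 CPM in both. CDH5, of the same list of 3 endothelial genes, had a median of 1.82 CPM in Kyse30, with 6 of 43 libraries at 0, and of 4.46 CPM in FaDu, with 0 of 20 at 0. Of 6 fibroblast genes, COL1A1 had medians of 14.1 CPM in Kyse30 and 8.71 CPM in FaDu and was at 0 in no library. COL1A2 had 5.09 and 0.37 CPM, COL3A1 0 and 1.415 CPM, PDGFRB 0.23 and 0 CPM, and LUM and DCN 0 CPM in both. The leukocyte gene CD68 had medians of 0.52 and 0.71 CPM. Of 6 squamous genes, 4 had a lower median in Kyse30 than in FaDu, namely KRT5 (2.10 and 204.5 CPM), KRT14 (0.689 and 11.5 CPM), KRT17 (11.7 and 914.5 CPM), and TP63 (19.3 and 31.4 CPM). The medians of KRT6A (29.8 and 24.3 CPM) and DSG3 (16.4 and 9.47 CPM) were higher in Kyse30. Treated and control libraries were compared with edgeR's quasi-likelihood test over all genes, and a gene was called where its Benjamini-Hochberg adjusted p did not exceed 0.05 and its log2FC was over 0.5 in either direction. Values with ± are means and SD over libraries. The labels do not say that libraries of a group are separate cultures, so the tests measure the spread between these libraries, which may be technical.

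In GRCh38, EPCAM (ENSG00000119888) lies at chr2:47345158-47387601 on the forward strand and CLDN7 (ENSG00000181885) at chr17:7259903-7263983 on the reverse strand. ADAM10 (ENSG00000137845) lies at chr15:58588807-58749978, ADAM17 (ENSG00000151694) at chr2:9488486-9556732, and BACE1 (ENSG00000186318) at chr11:117285207-117316259, all 3 on the reverse strand. PSEN2 (ENSG00000143801) lies at chr1:226870184-226896105 and NCSTN (ENSG00000162736) at chr1:160343272-160358952, both on the forward strand. The 3′ ends of several of these genes overlap a neighbour. All of the last 500 exonic bases of ADAM17 lie within exons of IAH1 on the opposite strand, all of those of BACE1 lie within exons of RNF214 on the opposite strand, and 38 of those of CLDN7 lie within exons of ELP5. The strand setting of the counting is not given in the sources used here, so the counts of ADAM17 and BACE1 are uncertain where the neighbour is also transcribed.

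CLDN7 is the member with changes under treatment, and its promoter is shown for that reason. The 250 bases before the RefSeq start of CLDN7 (GRCh38.p14, chr17:7262479-7262728, reverse strand) are printed with 4 E-boxes CACCTG or CAGGTG and 1 TGACGTCA in capitals.
CLDN7 promoter: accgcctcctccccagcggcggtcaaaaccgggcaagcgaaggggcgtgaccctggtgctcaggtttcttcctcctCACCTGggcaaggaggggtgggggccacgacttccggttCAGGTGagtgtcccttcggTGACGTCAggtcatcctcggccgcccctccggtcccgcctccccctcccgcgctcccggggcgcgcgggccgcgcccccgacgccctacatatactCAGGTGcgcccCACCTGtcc
CACCTG is the E-box bound by repressors such as SNAI and ZEB proteins, and TGACGTCA is the cAMP response element. Both strands were searched in windows of the same length before 35116 RefSeq starts, and 17.5% held CACCTG, 1.65% held TGACGTCA, and 6.57% held TGANTCA, the AP-1 element. The CLDN7 window held no TGANTCA, and the window before a second CLDN7 start (chr17:7263214-7263463) held none of the 3 motifs. Among the 7 windows of other members that were searched, that of PSEN2 held 1 CACCTG and the others none of the motifs. EPCAM had no window among them, so its promoter was not searched. These are matches of letters only, and 3′ reads do not tell which start was used.

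EPCAM itself was not called in any of the 19 comparisons within Kyse30 in the main fit, which took no account of replicate numbers. Calls of a fit that did are given in the closing section. Untreated Kyse30 libraries had 279.7, 191.7, and 187.9 CPM at 0 h, 284.8, 194.7, and 201.3 CPM at 6 h, and 211, 157, and 178.3 CPM at 72 h. Replicate 1 was the highest at each time and the times overlapped. After 6 h, EPCAM was 242.6, 220.7, 220.9, and 218.9 CPM under EGFlow, 296.1, 237.4, 222.5, and 177.9 CPM under EGFhigh, and 232.3, 227.4, 244.1, and 174.2 CPM under EGFhigh + EpEX. It was 308.9, 263, and 225 CPM under EpEX, against 292.8, 200.8, and 212.2 CPM under Fc. All of these groups overlapped their controls, with log2FC values of -0.01 for EGFlow (95% interval -0.45 to 0.43), 0.04 for EGFhigh (-0.40 to 0.48), and 0.18 for EpEX (-0.30 to 0.65).

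At 72 h, EPCAM was 275.4, 312.2, and 177.1 CPM under EGFhigh, so that 2 of 3 libraries lay above all untreated libraries and 1 among them. The mean was 254.9 ± 69.8 CPM (n = 3) under EGFhigh and 182.1 ± 27.2 CPM (n = 3) in untreated cells, a log2FC of 0.48 (SE 0.23, adjusted p = 0.244) that was not called. EGFlow gave 184.9 ± 33.9 CPM (n = 4) and EGFhigh + EpEX 190.4 ± 50.9 CPM (n = 3). Ordered by mean, EPCAM ran from 265.6 CPM under EpEX at 6 h to 176.2 CPM under Fc at 72 h, and the libraries of each pair of neighbouring groups in this order overlapped. EGFhigh was the highest of the 72 h groups and second in the order.

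**Figure D1:**
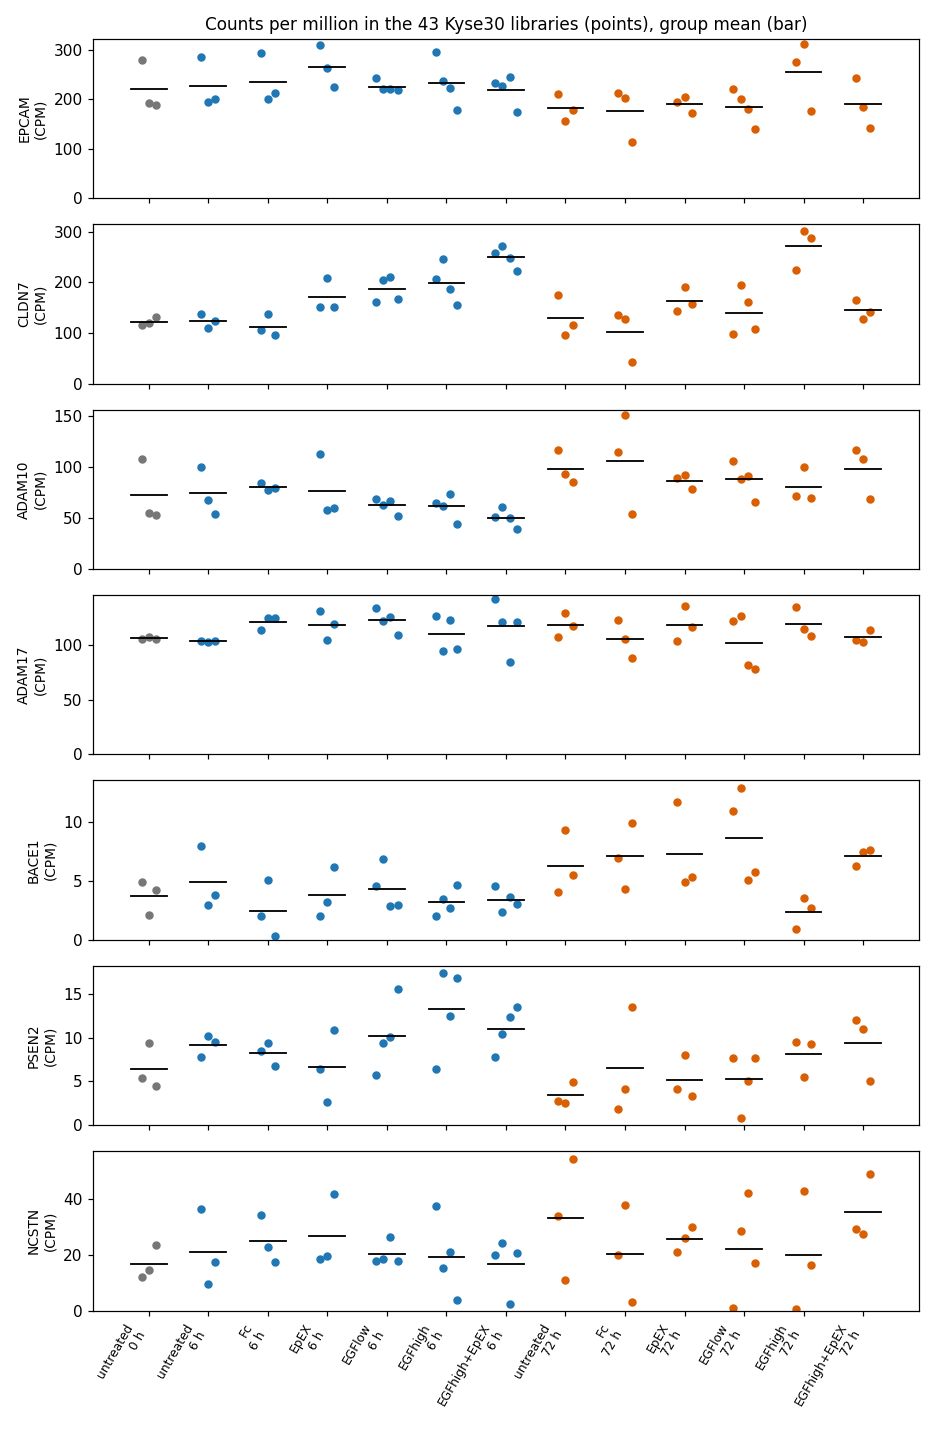
CPM of the 7 genes in all 43 Kyse30 libraries, by treatment and time (x axis), 1 point per library with a bar at the mean of each group. The mean of CLDN7 is highest with EGFhigh at 72 h (271.2 CPM), whose libraries (224.9 to 301.7 CPM) overlap those of EGFhigh + EpEX at 6 h (222 to 271.9 CPM), EPCAM groups overlap, and NCSTN has single libraries near 1 CPM.

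CLDN7 was the only one of the 7 genes called in a comparison within Kyse30 in the main fit, and it was called in 4 of 19. With EGFhigh for 72 h it had 224.9, 301.7, and 287 CPM, against 175.8, 95.02, and 115.3 CPM in untreated cells. Every EGFhigh library lay above every untreated one. The means were 271.2 ± 40.8 CPM and 128.7 ± 42.0 CPM (n = 3 each), a rise of 2.10-fold (log2FC 1.07, SE 0.27, adjusted p = 0.00915). It was 1 of 7 members called, where 6.20% of all 15350 genes tested were called, and the call was lost (adjusted p up to 0.0923) without untreated 72 h replicate 2 or replicate 3. The median log2FC was 0.01 over the 7 members and -0.03 over all genes.

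CLDN7 was lower with the low dose. EGFlow libraries at 72 h had 98.47, 194.2, 160.6, and 107.1 CPM, which overlapped untreated cells (log2FC 0.12, 95% interval -0.38 to 0.62). EGFhigh was above EGFlow in every library (log2FC 0.95, SE 0.25, adjusted p = 0.017, 1 of 7 members called against 3.73% of all genes). This call was lost without EGFlow replicate 1 or 4 or without EGFhigh replicate 3 or 4, with log2FC values from 0.83 to 1.18 over all omissions.

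With EGFhigh + EpEX for 72 h, CLDN7 had 166, 126.8, and 140.9 CPM, and every library lay below every EGFhigh library. CLDN7 fell by 0.91 on the log2 scale against EGFhigh alone (SE 0.27, adjusted p = 0.0448, 1 of 7 members called against 3.58% of all genes). Leaving out any library but EGFhigh replicate 1 ended this call, with log2FC values from -1.03 to -0.82. The 3 comparisons with EGFhigh at 72 h share the same 3 EGFhigh libraries. Against Fc at 72 h (134.9, 126.5, and 42.23 CPM), the EGFhigh + EpEX libraries overlapped the Fc libraries (log2FC 0.51, adjusted p = 1).

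After 6 h, the combination gave the highest mean level of CLDN7 among the 6 h groups. EGFhigh + EpEX libraries had 257.8, 271.9, 247.4, and 222 CPM, against 105.5, 137.1, and 95.18 CPM under Fc. All treated libraries lay above all Fc libraries, and the means were 249.8 ± 21.0 (n = 4) and 112.6 ± 21.8 CPM (n = 3). The log2FC was 1.15 (SE 0.26, adjusted p = 0.0058), and 1 of 7 members was called against 4.52% of all genes. This call held in each of the 7 fits that left out 1 of these libraries (log2FC 1.08 to 1.31).

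The single ligands at 6 h gave smaller differences that were not called. EGFhigh gave 206.3, 246.9, 187.4, and 155.5 CPM, EGFlow gave 160.5, 205.5, 209.9, and 167.6 CPM, and untreated cells had 136.6, 108.9, and 122.8 CPM. Each treated library lay above each untreated one, with log2FC values of 0.70 (SE 0.25, adjusted p = 0.137) for EGFhigh and 0.60 (SE 0.25, adjusted p = 0.258) for EGFlow. EpEX gave 151.8, 209.2, and 150.7 CPM, all above the Fc libraries of the same time (log2FC 0.60, SE 0.27, adjusted p = 0.47). Of the 7 members, 0 were called and 1 had an unadjusted p under 0.05 in each of these comparisons with edgeR, and DESeq2 called 0, where edgeR called 2.55%, 1.50%, and 0.0261% of all genes for EGFhigh, EGFlow, and EpEX. Of all 15350 genes, 2338, 2100, and 1451 had an unadjusted p under 0.05 in them. With Fc libraries added to the untreated ones as control, CLDN7 was called for EGFhigh (adjusted p = 0.0157) and EGFlow (adjusted p = 0.0489).

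Whether the CLDN7 response to EGFhigh differed between 72 and 6 h was tested as an interaction, which gave a difference of 0.37 in log2FC (95% interval -0.36 to 1.11, adjusted p = 0.71), and 0 of 7 members were called there against 1.01% of all genes. EGFhigh + EpEX exceeded EGFhigh alone by a log2FC of 0.33 at 6 h (95% interval -0.13 to 0.79, adjusted p = 1). In the order of group means, EGFhigh at 72 h and EGFhigh + EpEX at 6 h came first, Fc at 72 h came last with 101.2 ± 51.3 CPM, and neighbouring groups overlapped throughout. ELP5, the neighbour on the opposite strand, was not called in the 4 comparisons in which CLDN7 was (adjusted p 0.39 to 0.891).

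Keratin genes also differed in these comparisons. Of 4 epithelial markers, KRT8 (3296 ± 2060 against 1126 ± 268.8 CPM), KRT18 (5110 ± 2630 against 1781 ± 215.7 CPM), and KRT19 (6897 ± 390.8 against 3072 ± 449.6 CPM) rose with EGFhigh at 72 h, and the summed level of the 4 ran from 12195 to 20693 CPM under EGFhigh and from 5210 to 6859 CPM in untreated cells. KRT8 and KRT18 also differed, in the direction of CLDN7, between EGFhigh and EGFlow and between EGFhigh + EpEX and EGFhigh. With EGFhigh + EpEX at 6 h, the summed level of the 4 was 10093 to 11285 CPM, against 5872 to 7274 CPM under Fc, and 0 of the 4 were called. CDH1, of the same list, had its highest Kyse30 group mean with EGFhigh + EpEX at 72 h and its lowest in untreated cells of 0 h. Of the 6 squamous genes, KRT6A and KRT17 rose with EGFhigh at 72 h (summed level of the 6 from 177.2 to 537.5 CPM, against 49.99 to 94.06 CPM in untreated cells) and with EGFhigh + EpEX at 6 h (99.19 to 283.5 CPM, against 38.56 to 81.73 CPM under Fc). Both were also higher with EGFhigh than with EGFlow at 72 h, and KRT6A was lower with EGFhigh + EpEX than with EGFhigh. The other squamous genes, KRT5, KRT14, TP63, and DSG3, each had their lowest Kyse30 group mean with EGFhigh + EpEX at 6 h. The highest group mean of TP63 was that of untreated cells at 72 h, and that of KRT14 was with EGFhigh at 72 h. Of 3 leukocyte markers, CD68 rose with EGFhigh at 72 h (8.26 ± 2.997 against 0.409 ± 0.542 CPM, log2FC 4.15, adjusted p = 0.0462), with a summed level of 5.71 to 11.6 CPM under EGFhigh and 0 to 1.02 CPM in untreated cells, and CD3E was at 0 in 41 and PTPRC in 35 of 43 libraries. The part of these markers in the CLDN7 difference was not tested.

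**Figure D2:**
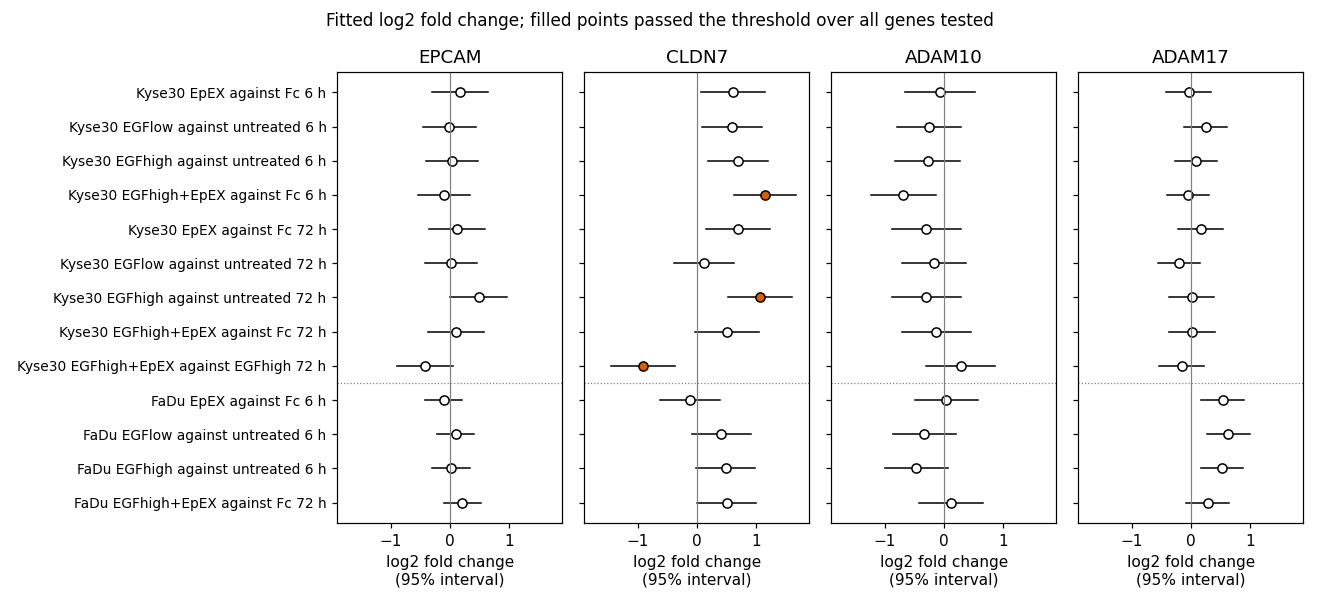
Log2FC (x axis) of EPCAM, CLDN7, ADAM10, and ADAM17 in 13 treatment comparisons within a cell line (rows), as a point with its 95% interval, and a filled point for a called gene. CLDN7 has filled points at 1.15, 1.07, and -0.91 in Kyse30, and EPCAM, ADAM10, and ADAM17 have none.

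ADAM10, the constitutive sheddase of EpCAM, was not called in any Kyse30 comparison of the main fit, which took no account of replicate numbers. Its largest separation was at 6 h, when EGFhigh + EpEX libraries had 50.99, 61.18, 50.32, and 39.33 CPM and Fc libraries 84.72, 77.57, and 80.11 CPM. All treated libraries lay below all Fc libraries, with a log2FC of -0.68 (SE 0.27) and an adjusted p of 0.139. The EGFlow and EGFhigh groups of 6 h, with 62.5 ± 7.08 and 61.4 ± 12.4 CPM (n = 4 each), overlapped untreated cells (100.6, 67.99, and 54.43 CPM). Over the 13 groups, the mean of ADAM10 was lowest with EGFhigh + EpEX at 6 h (50.5 CPM) and highest with Fc at 72 h (106.5 CPM), whose 3 libraries spread from 53.84 to 151.1 CPM.

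ADAM17, the sheddase that also releases EGFR ligands, was the steadiest of the 7 genes in Kyse30, with 78.08 to 142.7 CPM over all libraries. Untreated libraries of 6 h had 103.7, 103.3, and 103.5 CPM. Its SD within groups was 0.21 on the log2 scale, and 10.3% of the genes within 2-fold of its level had a smaller SD. With EGFhigh it had 110.4 ± 16.9 CPM (n = 4) at 6 h and 119.4 ± 13.7 CPM (n = 3) at 72 h, with log2FC values of 0.09 (95% interval -0.27 to 0.45) and 0.01 (-0.37 to 0.39).

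BACE1 was close to the lower limit of these libraries in Kyse30, with a median of 4.55 CPM and 2 to 102 counts. EGFhigh libraries of 72 h had 0.933, 3.57, and 2.71 CPM, EGFlow libraries 10.96, 12.95, 5.08, and 5.75 CPM, and untreated libraries 4.09, 9.35, and 5.52 CPM. The EGFhigh libraries were the lowest of these without overlap. The log2FC was -1.87 (SE 0.60, adjusted p = 0.0712) against EGFlow and -1.40 (SE 0.63, adjusted p = 0.198) against untreated cells, and neither was called. DESeq2 called BACE1 against EGFlow, as did edgeR when only genes with a mean of at least 5 CPM were tested. EGFhigh + EpEX libraries had 6.29, 7.51, and 7.63 CPM, above all EGFhigh libraries (log2FC 1.58, SE 0.63, adjusted p = 0.17).

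PSEN2, which encodes a presenilin, the catalytic part of gamma-secretase, was low as well, with 0.762 to 17.4 CPM in Kyse30. Untreated libraries of 72 h had 2.79, 2.48, and 4.91 CPM, and EGFhigh libraries had 9.56, 5.53, and 9.28 CPM. The groups did not overlap, and the log2FC of 1.27 (SE 0.59, adjusted p = 0.221) was not called. With it, 4 of 7 members (EPCAM, CLDN7, BACE1, and PSEN2) had an unadjusted p under 0.05 for EGFhigh at 72 h, BACE1 with a negative and the others with a positive log2FC, where 2982 of 15350 genes had one.

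PSEN2 was not called over time. It had 9.18 ± 1.23 CPM in untreated cells of 6 h and 3.39 ± 1.32 CPM at 72 h (n = 3 each), without overlap (log2FC -1.45, adjusted p = 0.25). edgeR and DESeq2 each called 0 of 7 members between 72 and 6 h in untreated cells, with EGFlow, and with EGFhigh, where edgeR called 1.55%, 14.8%, and 12.3% of all genes. With edgeR, 1, 0, and 0 members had an unadjusted p under 0.05.

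NCSTN, which encodes nicastrin, the substrate receptor of gamma-secretase, was set apart by single libraries in Kyse30. EGFhigh libraries of 72 h had 0.70, 43.15, and 16.56 CPM and EGFlow libraries 0.902, 28.45, 42.34, and 17.26 CPM. The low libraries, both replicate 1, held 6 and 7 counts of NCSTN in totals of 9499780 and 7743313, so that their depth was above the median. The SD within groups was 1.39 on the log2 scale, 99.8% of the 4435 genes of like level had a smaller SD, and the median SD of those genes was 0.42. In FaDu, the SD of NCSTN was 1.59, above that of 99.95% of 3989 genes of like level. At 6 h, FaDu replicate 3 had 4.76 CPM under EGFhigh, 6.19 under EGFlow, 2.40 under EpEX, and 1.74 under EGFhigh + EpEX, against 21.4 CPM in untreated cells and 27.9 under Fc. Replicate 4 had 51.5 CPM under EGFhigh, 41.2 under EGFlow, and 28.5 under EpEX, against 9.00 CPM in untreated cells and 10.9 under Fc. The treated libraries thus lay below both controls in replicate 3 and above both in replicate 4, and the 2 replicates were opposite in all 3 treatments that both hold, a difference that was not tested. No comparison called NCSTN.

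In FaDu cells, none of the 7 genes was called in the 6 comparisons with 2 libraries on each side, among them EGFhigh + EpEX against Fc at 72 h, where 0.818% of all genes were called. EPCAM was 393.5 and 396 CPM in untreated cells of 6 h, 395.3 and 450.2 CPM under EGFlow, 381 and 420.8 CPM under EGFhigh, 419.3 and 438.5 CPM under Fc, and 379 and 418.2 CPM under EpEX. At 72 h, Fc libraries had 306.3 and 278.7 CPM and EGFhigh + EpEX libraries 360.3 and 317.8 CPM. All 11 libraries of 6 h lay at or above 379 CPM and all 8 libraries of 72 h at or below 366.8 CPM. The 1 untreated library of 0 h had 348.1 CPM, below all 6 h libraries and within the range of the 72 h libraries. The tested comparison of Fc at 72 h with Fc at 6 h gave a log2FC of -0.55 for EPCAM (SE 0.15, adjusted p = 0.0567) and -0.69 for CLDN7 (SE 0.24, adjusted p = 0.148). Here 0 of 7 members were called by edgeR and 3 had an unadjusted p under 0.05, where 2.88% of 16022 genes were called and 2410 had an unadjusted p under 0.05, and DESeq2 called EPCAM. The median log2FC of the members was -0.48 and that of all genes 0.03. With all FaDu replicates, EPCAM had -0.79 and CLDN7 -0.58, with adjusted p = 1 for both.

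ADAM17 stood apart in FaDu at 6 h. EGFlow libraries had 172.1 and 179.7 CPM, EGFhigh libraries 164.3 and 162.4 CPM, and untreated libraries 100.6 and 126.5 CPM. EpEX libraries had 164.7 and 163 CPM and Fc libraries 118.5 and 107.5 CPM. In each of the 3 comparisons the treated libraries were the higher ones throughout, and the log2FC values were 0.63 for EGFlow (SE 0.17, adjusted p = 0.0513), 0.52 for EGFhigh (SE 0.17, adjusted p = 0.131), and 0.54 for EpEX (SE 0.17, adjusted p = 0.113). edgeR called 0 members in each, with 1, 2, and 1 at an unadjusted p under 0.05 for EGFlow, EGFhigh, and EpEX, while 3.45%, 3.06%, and 3.50% of all genes were called and 2404, 2267, and 2225 had such a p, and DESeq2 called ADAM17 for EGFlow and EpEX. IAH1, whose exons cover the 3′ end of ADAM17, had log2FC values of -0.02, -0.14, and -0.22. With all FaDu replicates the log2FC of ADAM17 was 0.54, 0.09, and 0.57, with adjusted p = 1 for each.

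CLDN7 in FaDu was 108.6 and 172.4 CPM under EGFhigh at 6 h and 106.3 and 94.04 CPM in untreated cells, which did not overlap (log2FC 0.49, SE 0.24, adjusted p = 0.371). BACE1 was 12.2 and 6.28 CPM under EGFhigh and 21.1 and 18.1 CPM in untreated cells (log2FC -1.08, SE 0.32, adjusted p = 0.0839). Of the 7 members, 0 were called and 2 had an unadjusted p under 0.05 in this comparison, and DESeq2 called 0. BACE1 was called without EGFhigh replicate 3, and with all FaDu replicates its log2FC was -0.79 (adjusted p = 0.991). Single libraries of 72 h had 169.2 CPM of CLDN7 under EGFhigh and 140 CPM under EGFlow, which have no replicate in the libraries used, and the 1 untreated library of 72 h had 121.7 CPM. The EGFhigh response of CLDN7 at 6 h differed between Kyse30 and FaDu by 0.24 in log2FC (95% interval -0.56 to 1.04, adjusted p = 1), and 0 of 7 members and 0.0611% of all genes were called in that interaction.

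**Figure D3:**
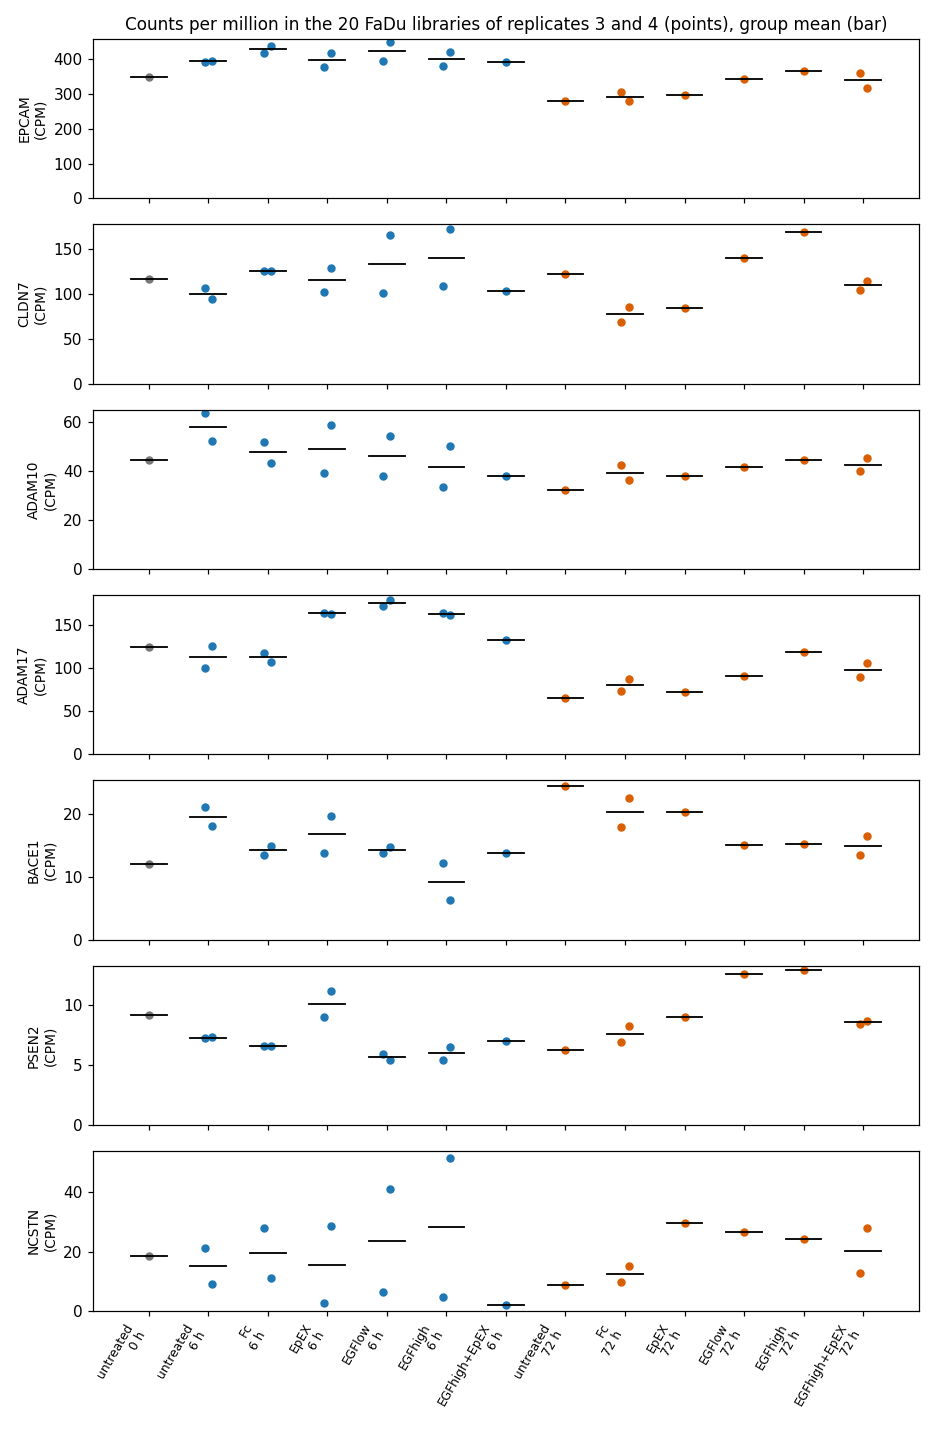
CPM of the 7 genes in the 20 FaDu libraries of replicates 3 and 4, by treatment and time (x axis), 1 point per library with a bar at the mean of each group. EPCAM lies at 379 CPM or more in all 6 h and at 366.8 CPM or less in all 72 h libraries, with 348.1 CPM in the 1 library of 0 h. ADAM17 is highest with EGFlow, EGFhigh, and EpEX at 6 h.

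In untreated cells at 6 h, EPCAM and BACE1 were lower in Kyse30 than in FaDu. In a fit of both lines, EPCAM had 226 ± 48.4 CPM (n = 3) in Kyse30 and 402.3 ± 0.923 CPM (n = 2) in FaDu, a log2FC of -0.83 (SE 0.24, adjusted p = 0.00787). The libraries did not overlap. This call was lost without Kyse30 replicate 3 or without either FaDu library, and with all FaDu replicates (log2FC -0.72, adjusted p = 0.59). BACE1 had 4.90 ± 2.64 CPM in Kyse30 and 20 ± 2.29 CPM in FaDu, a log2FC of -2.04 (SE 0.55, adjusted p = 0.0043), and stayed called with all FaDu replicates (log2FC -2.62, adjusted p = 0.0292). RNF214, which covers the 3′ end of BACE1, had a log2FC of -0.61 (adjusted p = 0.168). In all, 2 of 7 members were called between the lines, where 22.4% of 19634 genes were called. CLDN7 had 122.3 ± 13.3 CPM in Kyse30 and 102.1 ± 9.51 CPM in FaDu (log2FC 0.26, adjusted p = 0.573).

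**Figure D4:**
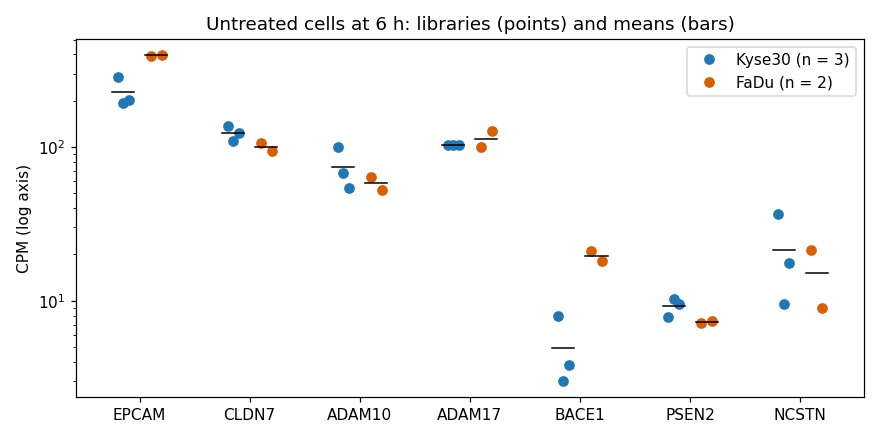
CPM (log axis) of the 7 genes in untreated Kyse30 (3 libraries) and FaDu cells (2 libraries) at 6 h, 1 point per library with a bar at the mean. EPCAM and BACE1 lie lower in Kyse30 without overlap and were called, and the other 5 genes were not.

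The 7 genes did not move as a block over the 13 Kyse30 groups. Pearson's r between group means was 0.54 for EPCAM and CLDN7, -0.61 for EPCAM and ADAM10, and -0.82 for EPCAM and BACE1. These are descriptions over 13 points that share libraries, times, and depth. Among 10241 genes with a mean of at least 5 CPM, those whose group means were most like EPCAM were TWF1 (r = 0.98), NT5E (0.97), LMNA (0.96), NET1 (0.95), and LYPLA1 (0.95), and the most opposite was ID4 (-0.97). Most like CLDN7 were QSOX1 (0.95), GJB5, a gap junction gene (0.94), RNF149 (0.93), PLAUR, the urokinase receptor gene (0.93), and ZDHHC9 (0.93), and the most opposite was PHKA2 (-0.95).

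The other genes of EpCAM cleavage were described from a list by role. Among 6 tested partners of EpCAM, 2 rose and 1 fell with EGFhigh for 72 h in Kyse30, where 6.20% of all genes were called. CLDN3, a claudin of epithelial junctions, rose from 26.1 ± 8.66 to 115.9 ± 66.3 CPM (log2FC 2.15, adjusted p = 0.0148, lost without untreated replicate 3 or EGFhigh replicate 3). CLDN1 fell by 1.39 on the log2 scale (1291 ± 111.0 to 493.3 ± 169.6 CPM, adjusted p = 0.00214). CD44, the hyaluronan receptor that EpCAM and CLDN7 join in membrane complexes, rose from 165.9 ± 33.99 to 718.7 ± 114.0 CPM (log2FC 2.11, adjusted p = 7.17e-07). With EpEX added to EGFhigh at 72 h, CLDN1 rose (log2FC 1.26) and CD44 fell by 1.40 on the log2 scale, the CLDN1 call being lost without EGFhigh replicate 1. CLDN1 and CD44 also differed between untreated 72 h and 6 h cells, where CLDN1 rose from 328.4 to 1291 CPM and CD44 fell from 316.4 to 165.9 CPM. The median log2FC of the 6 genes was 0.78, and that of all genes -0.03, for EGFhigh at 72 h. In FaDu, CLDN1 was called in the other direction, at 6 h. Its log2FC over single omissions was 2.74 to 3.44 with EGFlow, 2.44 to 3.42 with EGFhigh, and 1.899 to 3.746 with EpEX. CD44 also rose there with EGFlow (1.095 to 1.796) and EGFhigh (1.226 to 1.915). CDH1 rose with EGFlow (0.984 to 1.448), and CLDN4 fell with EGFhigh (-0.937 to -0.774) and EpEX (-1.089 to -0.662). These FaDu calls are among those lost with all FaDu replicates.

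Of the other gamma-secretase genes, PSENEN, APH1A, and APH1B were not called in a treatment comparison in either line. Of 6 other sheddase and beta-secretase genes tested, ADAMTS1 fell by 2.56 on the log2 scale with EGFhigh at 72 h, from 6.69 to 1.11 CPM, and ADAM15 rose with EGFhigh + EpEX at 6 h (log2FC 1.27), with overlapping libraries. Of all genes, 6.20% were called for EGFhigh at 72 h and 4.52% for EGFhigh + EpEX at 6 h. ADAMTS1 lost its call without EGFhigh replicate 1 or 3 or without untreated replicate 2 or 3, and ADAM15 without EGFhigh + EpEX replicate 3 or Fc replicate 1 or 4. ADAM19, of the same list, was higher at 72 h with EGFhigh (37.57 ± 12.27 CPM) than with EGFlow (10.83 ± 2.58 CPM, log2FC 1.8, adjusted p = 0.0241) and than with EGFhigh + EpEX (9.89 ± 3.74 CPM, log2FC -1.91 for the combination against EGFhigh, adjusted p = 0.033). The first call was lost without EGFhigh replicate 1 or 3 or EGFlow replicate 2 or 4, and the second in 5 of 6 single omissions, the exception being EGFhigh replicate 4. In these 2 comparisons, 3.73% and 3.58% of all genes were called. In Kyse30 untreated cells, ADAM9, ADAM19, ADAMTS1, and BACE2 were higher than in FaDu, where 22.4% of 19634 genes were called between the lines. Over the 20 FaDu libraries, the medians of ADAM19 (0 CPM) and ADAMTS1 (0.106 CPM) lay below the level of 3 counts. Over the 43 Kyse30 libraries, their medians were 11.95 and 2.88 CPM. BACE2, the second beta-secretase, had 28.2 ± 4.30 CPM in Kyse30 and 4.0 ± 0.56 CPM in FaDu (log2FC 2.81), opposite in direction to BACE1.

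Among 14 tested genes of sheddase maturation and inhibition, 1 rose and 1 fell with EGFhigh at 72 h, where 6.20% of all genes were called. TIMP3, the inhibitor of ADAM17, fell by 2.78 on the log2 scale, from 365 ± 20.9 to 53.4 ± 22.8 CPM (adjusted p = 0.000615), and was higher with EGFhigh + EpEX than with EGFhigh (260 ± 85.8 CPM, log2FC 2.29, lost without EGFhigh replicate 1). TIMP3 had risen from 35.5 to 365 CPM between untreated cells of 6 and 72 h. TIMP1, which inhibits ADAM10, rose from 88.2 ± 8.93 to 170.6 ± 26.8 CPM (log2FC 0.95, adjusted p = 0.0103, lost without untreated replicate 2). RHBDF2, which encodes iRhom2, the carrier that brings ADAM17 to the cell surface, rose from 14.6 ± 4.34 to 39.3 ± 8.13 CPM with EGFhigh + EpEX at 6 h (log2FC 1.43, adjusted p = 0.00695, lost without Fc replicate 1). TSPAN17, a tetraspanin of ADAM10, rose in the same comparison (58.95 ± 9.00 to 97.7 ± 17.76 CPM, log2FC 0.73, adjusted p = 0.0269, lost without Fc replicate 1 or 4 or EGFhigh + EpEX replicate 3). FURIN, a proprotein convertase, was lower at 72 h with EGFhigh + EpEX than with EGFhigh (46.37 ± 2.23 against 98.67 ± 11.49 CPM, log2FC -1.09, adjusted p = 0.0104, lost without EGFhigh + EpEX replicate 2 or 3). In FaDu, TSPAN14, a tetraspanin that carries ADAM10 out of the endoplasmic reticulum, rose with EGFhigh (log2FC 0.77) and EpEX (0.74) at 6 h. The first call was lost in each of 4 fits that left out 1 library, and the second without Fc replicate 3 or without EpEX replicate 3 or 4. TSPAN14 also rose in FaDu with EGFhigh + EpEX at 72 h (87.3 ± 7.84 to 166.7 ± 15.19 CPM, log2FC 0.93, adjusted p = 0.0137, lost without Fc replicate 3 or 4 or EGFhigh + EpEX replicate 4). In Kyse30, 4.52% of all genes were called for EGFhigh + EpEX at 6 h. For EGFhigh + EpEX against EGFhigh at 72 h, 3.58% were called. The FaDu shares were 3.06% (EGFhigh, 6 h), 3.50% (EpEX, 6 h), and 0.818% (EGFhigh + EpEX, 72 h).

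**Figure D5:**
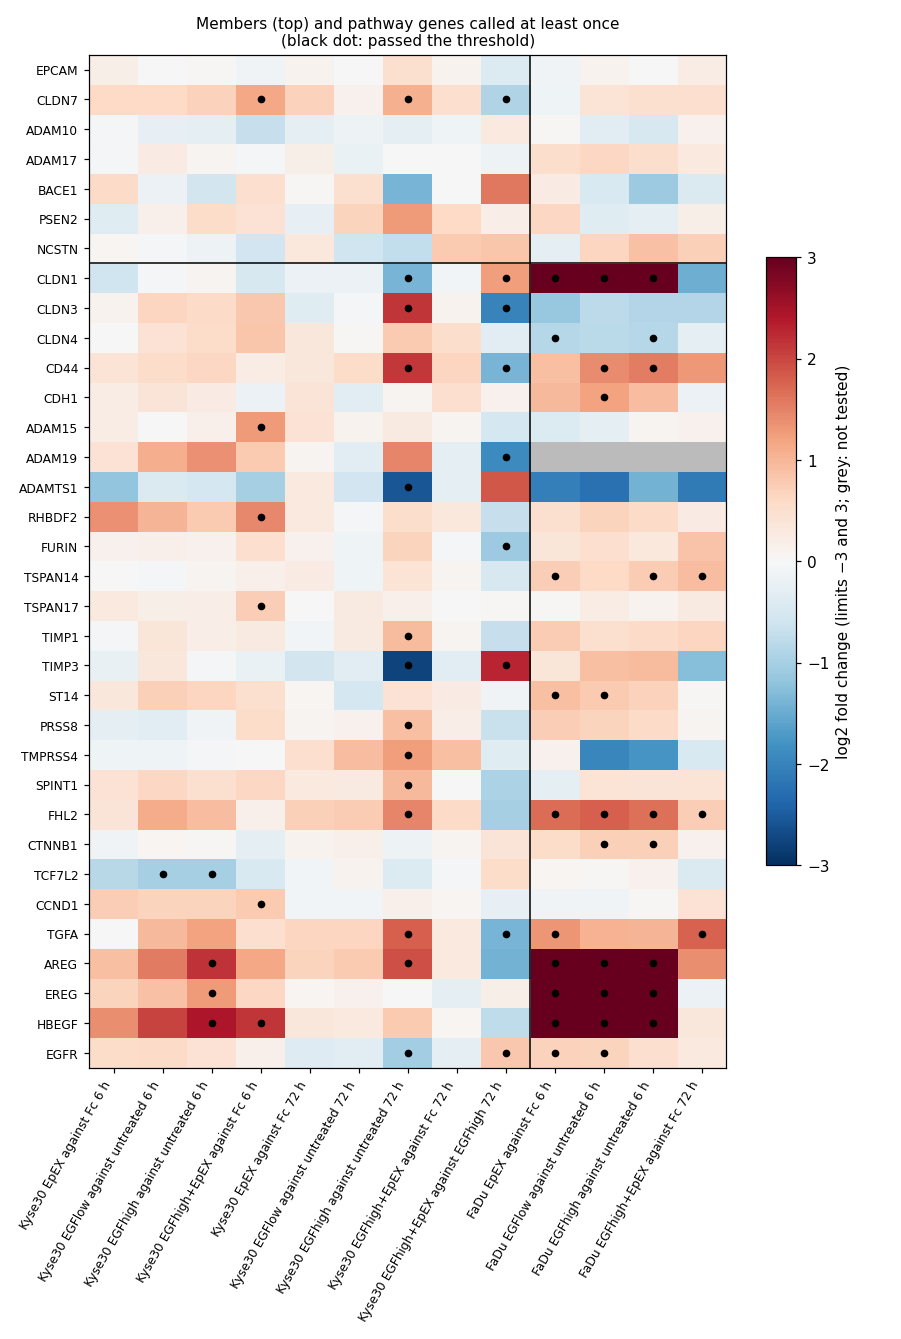
Log2FC (colour, limited to 3 in either direction) of the 7 genes and of the pathway genes called at least once (rows, by role) in 13 treatment comparisons (columns), with a dot for a called gene. CD44, CLDN1, CLDN3, and TIMP3 carry dots for EGFhigh at 72 h in Kyse30, and AREG, EREG, and HBEGF for the 6 h EGF and EpEX treatments in FaDu.

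Of the EpICD partners and targets, FHL2, the scaffold that takes EpICD to the nucleus, rose in FaDu at 6 h with EGFlow (97.0 ± 2.98 to 333.6 ± 22.5 CPM, log2FC 1.78), EGFhigh (log2FC 1.65), and EpEX (log2FC 1.68), and these calls held in every single omission. It also rose in FaDu with EGFhigh + EpEX at 72 h (48.82 ± 1.48 to 80.93 ± 7.21 CPM, log2FC 0.73, adjusted p = 0.045), a call lost in each of 4 single omissions. In Kyse30 it rose with EGFhigh at 72 h (29.7 ± 10.8 to 83.3 ± 23.3 CPM, log2FC 1.47, adjusted p = 0.0159), a call lost without untreated replicate 2 or 3 or EGFhigh replicate 4. TCF7L2, a partner of beta-catenin on DNA, fell in Kyse30 at 6 h from 78.5 ± 17.45 CPM to 39.22 ± 5.04 CPM with EGFlow (log2FC -1.0, adjusted p = 0.0132, lost without untreated replicate 3 or 4 or EGFlow replicate 3) and to 39.39 ± 9.07 CPM with EGFhigh (log2FC -0.99, adjusted p = 0.0094, lost without untreated replicate 3 or EGFhigh replicate 2). CTNNB1, the gene of beta-catenin, rose in FaDu at 6 h from 113.7 ± 4.80 CPM to 185.4 ± 29.67 CPM with EGFlow and to 187.3 ± 21.29 CPM with EGFhigh (log2FC 0.71 and 0.72), and each call was lost without either untreated library or without replicate 4 of the treatment. CCND1, which encodes cyclin D1, rose with EGFhigh + EpEX in Kyse30 at 6 h (326 ± 29.78 to 558.9 ± 128.3 CPM, log2FC 0.78, adjusted p = 0.0217, lost without Fc replicate 1, 3, or 4 or EGFhigh + EpEX replicate 1). MYC and LEF1, of the same list, were not called in a treatment comparison in either line. Of all genes, 3.45%, 3.06%, and 3.50% were called in FaDu at 6 h for EGFlow, EGFhigh, and EpEX. The share was 0.818% in FaDu with EGFhigh + EpEX at 72 h and 6.20% in Kyse30 with EGFhigh at 72 h. In Kyse30 at 6 h it was 1.50% for EGFlow, 2.55% for EGFhigh, and 4.52% for EGFhigh + EpEX. Of the EGFR ligands that the sheddases release, AREG rose with EGFhigh in Kyse30 at 6 h (log2FC 2.16) and 72 h (1.93). In FaDu at 6 h, AREG, EREG, and HBEGF rose with EGFlow, EGFhigh, and EpEX by log2FC values from 3.16 to 4.54. In Kyse30, EREG and HBEGF also rose with EGFhigh at 6 h (1.21 to 1.42 and 2.31 to 2.56 over single omissions, calls lost in 5 and 6 of 7). HBEGF rose there with EGFhigh + EpEX at 6 h (0.71 to 2.54, lost in 4 of 7). TGFA rose in Kyse30 with EGFhigh at 72 h (1.44 to 1.99, lost in 1 of 6) and was lower with EpEX added (-1.77 to -1.04, lost in 4 of 6). In FaDu, TGFA rose with EpEX at 6 h (1.06 to 1.54) and with EGFhigh + EpEX at 72 h (1.36 to 2.12). Each of these 2 calls was lost in 3 of 4 single omissions. With all FaDu replicates, each of the 32 calls of pathway genes in FaDu treatments was lost, 9 of them with a change of sign (AREG with EpEX among them), in a fit that called 0 genes in each of these comparisons. EGFR itself fell by 1.03 on the log2 scale with EGFhigh at 72 h in Kyse30 (4100 ± 561.2 to 2003 ± 313.7 CPM, adjusted p = 0.000234). At 72 h it was also lower with EGFhigh than with EGFlow (log2FC -0.83 to -0.58 over single omissions, lost in 3 of 7). It was higher with EGFhigh + EpEX than with EGFhigh (0.71 to 0.93, lost without EGFhigh replicate 1). In FaDu at 6 h, EGFR rose with EGFlow (0.54 to 0.78) and EpEX (0.465 to 0.87), calls that are among those lost with all FaDu replicates. Over single omissions, the EGFlow call was lost in each of 4 and the EpEX call in 3 of 4.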

How the data were processed

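The deposited counts, per the labels whole-number htseq-count tallies of reads per gene, were made by the authors from QuantSeq 3′ FWD libraries. The submitters' processing notes name STAR, HTSeq, GRCh38, and hg38. Which annotation release and strand setting were used, and whether molecular identifiers were counted, is not given in the sources used here, and the floors of 3 counts cover counting error only. Reads without a gene (33.7 to 60.3% of reads in the libraries used) were left out. Symbols came from GENCODE 29 by Ensembl identifier (58275 of 58395 matched), and gene coordinates from the same release. No 2 libraries were identical.

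The 7 members, the gene lists, and the use of FaDu replicates 3 and 4 were chosen with earlier results of these data known. Named genes were all members and the pathway and marker genes of the lists, some of which are not reported here, and the 5 genes most alike or opposite to EPCAM and CLDN7.

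Counts were tested with edgeR 4.0.16 in R 4.3.3 (filterByExpr by group with minimum count 10 and minimum total 15, TMM, quasi-likelihood F test, Benjamini-Hochberg over all genes tested), in 1 fit of 43 Kyse30 libraries, 1 of 20 FaDu libraries, and 1 of all 63. Genes tested were 15350, 16022, and 19634. A prior count of 2 was added for log2 CPM. SE and 95% intervals were derived from the F statistic. Comparisons used untreated cells as control of EGF and Fc as control of EpEX and of the combination. The script was tested on simulated data. Alternatives were DESeq2 1.42.0, RLE size factors, no filter, genes averaging 5 CPM or more, fits of the compared groups alone, joint controls, all FaDu replicates, a replicate block, and each library left out in turn. Promoter sequences came from RefSeq (GRCh38.p14).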

Additional observations from a re-analysis of the deposited data

Results flagged for a closer look

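In groups of 4 libraries, 28 pairs of a member and a group were screened for a library far from the other 3, and 2 were marked. Chance alone marks about 1 in 20 such groups. EPCAM in Kyse30 with EGFlow at 6 h was 242.6 CPM in replicate 1, while the other 3 libraries lay between 218.9 and 220.9 CPM. NCSTN in the same group was 26.59 CPM in replicate 3, while the other 3 lay between 17.72 and 18.65 CPM. No response of a member was found to differ between time points or between cell lines by a test of the difference.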

How the results depend on the processing

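CLDN7 kept its direction in its 4 called comparisons under each alternative, and its call with EGFhigh + EpEX at 6 h held in each. With only the libraries of the groups compared, 0 members were called for EGFhigh against EGFlow and for EGFhigh + EpEX against EGFhigh at 72 h, and 1 (CLDN7) for EGFhigh at 6 h. With untreated and Fc libraries as joint control, 1 member (CLDN7) was called for EGFlow and for EGFhigh at 6 h. A mean of at least 5 CPM and DESeq2 each gave 2 for EGFhigh against EGFlow at 72 h. In FaDu, ADAM17 was the 1 call for EGFlow with RLE size factors, with a mean of at least 5 CPM, and in DESeq2, which also called 1 for EpEX and 1 for Fc at 72 h against 6 h. Without a filter, 1 was called for EGFhigh (BACE1) and 1 for Fc over time (CLDN7). With all FaDu replicates, 1 of 2 calls between the lines was left. The causes were not tested.

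Deviations from the group means were correlated between libraries of different groups. In Kyse30, the mean correlation was 0.117 for libraries of the same replicate number and -0.0397 for those of other numbers. In FaDu it was 0.158 and -0.158, values that are opposite by construction in pairs of libraries. Same-number correlations ran from -0.284 to 0.548 in Kyse30 and from -0.196 to 0.554 in FaDu. Same-number libraries thus deviated together on average, but not evenly, and whether the numbers mark pairs is not known. The main fits had no replicate block, and the block is given here alone. With the replicate block, 2 members were called for EGFhigh + EpEX at 6 h (ADAM10 added, log2FC -0.77, adjusted p = 0.0256), 2 for EGFhigh at 72 h (EPCAM added, 0.59, adjusted p = 0.0363), 1 for FaDu EGFlow (ADAM17), and 2 for FaDu Fc over time (EPCAM and CLDN7). Of the pathway calls in treatments, the block ended 3 of 38 in Kyse30 (ADAMTS1, TMPRSS4, and SPINT1) and 0 of 32 in FaDu.

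Leaving out 1 library at a time, the members called ranged from 0 to 1 for EGFhigh at 72 h (0 without untreated replicate 2 or 3), for EGFhigh against EGFlow at 72 h, for EGFhigh + EpEX against EGFhigh at 72 h, and for FaDu EGFhigh at 6 h (1 without EGFhigh replicate 3), and from 1 to 2 between the lines. They were 1 in all fits for EGFhigh + EpEX at 6 h and 0 in all others. With 1 library left in a FaDu group, that library is assumed to vary like the other groups. Of the pathway calls, 9 of 38 in Kyse30 and 14 of 32 in FaDu held in every omission.

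With all FaDu replicates, the direction of these genes turned. At 6 h, log2FC was -0.13 for CLDN1, -2.67 for CD44, -0.0039 for ST14, and -0.45 for EGFR with EGFlow, -0.39 for CLDN1, 0.14 for CLDN4, and -2.46 for CD44 with EGFhigh, and -0.14 for TGFA and -1.85 for AREG with EpEX.

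Counts of called genes over all genes moved more widely. They ran for Kyse30 from 20 to 776 (EGFlow 6 h, 230 as stated), 113 to 1105 (EGFhigh 6 h, 391), 0 to 106 (EpEX 6 h, 4), 209 to 1120 (EGFhigh + EpEX 6 h, 694), 475 to 1628 (EGFhigh 72 h, 951), 241 to 826 (EGFhigh against EGFlow 72 h, 573), and 187 to 847 (EGFhigh + EpEX against EGFhigh 72 h, 550). The lowest came without untreated 6 h replicate 4 for EGFlow and EGFhigh at 6 h, without EpEX replicate 3 or Fc replicate 1, 3, or 4 for EpEX, without untreated 72 h replicate 2 for EGFhigh at 72 h, and without EGFhigh + EpEX replicate 2 for the last. For FaDu they ran from 0, with all replicates, to 799 (EGFlow, 553), 719 (EGFhigh, 491), 785 (EpEX, 560), 803 (Fc over time, 462), and 316 (EGFhigh + EpEX 72 h, 131), and between the lines from 953 to 4701 (4400) and in their EGFhigh response from 0 to 70 (12). Over time in Kyse30 they ran from 72 to 481 (untreated, 238, lowest without 6 h replicate 3), 945 to 2307 (EGFhigh, 1892, lowest without 72 h replicate 3), and 86 to 401 (EGFhigh response, 155, lowest without untreated 6 h replicate 4). Comparisons with 0 called genes had up to 13 without a filter. Low counts limit the precision of BACE1 and PSEN2, which had as few as 2 and 6 counts in a Kyse30 library, each in one with a total above the median. NCSTN also had as few as 6 counts in such a library, but its median was 126 counts. Its SD within Kyse30 groups was 1.39 on the log2 scale, where the median SD of genes of like level was 0.42. The cause of this spread was not tested.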
